A study of Mus musculus with 6 samples.

Results

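Prostaglandins and leukotrienes are lipid mediators made from arachidonic acid, and 10 genes of their synthesis, breakdown and reception (Ptgs1, Ptgs2, Ptges, Hpgd, Hpgds, Ptger2, Ptger4, Alox5, Alox15 and Ltc4s) were followed by name in colon tumor RNA. All 10 were found among the 54532 genes of the deposited table. Tumors were induced with azoxymethane (AOM, a colon carcinogen) and 3 cycles of dextran sulfate sodium (DSS, which injures the colon epithelium). Tamoxifen was injected afterwards in both groups, so the deletion of Tmem173, the gene of the DNA sensing adaptor STING, was induced once tumors had formed. The control group, Tmem173fl/fl AOM+DSS-L (labelled WT), carries loxP sites around Tmem173 and no Cre. The other group, Tmem173iΔmye AOM+DSS-L (Tmem173fl/fl Lyz2-Cre ert2, labelled CRE), also carries a tamoxifen-activated Cre driven by Lyz2. Lyz2 is a gene of macrophages, monocytes and neutrophils, and cells without active Cre keep Tmem173. The paper also treats dendritic cells grown from the bone marrow of such mice as STING knockout. Which cells of these tumors lost Tmem173 was not tested here. Each group had 3 tumors, and both strains were on the C57BL/6N background. The age of these mice and whether each tumor came from a separate mouse are not given in the sources used here, so p-values measure only the spread between these samples.

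Cyclooxygenases (Ptgs1, constitutive in many tissues, and Ptgs2, induced by inflammatory signals and known for its part in colon tumors) turn arachidonic acid into the precursor of all prostaglandins. Ptges then makes prostaglandin E2, which acts through receptors such as EP2 (Ptger2) and EP4 (Ptger4), while Hpgd takes the first step of its breakdown and Hpgds makes prostaglandin D2. Lipoxygenases take arachidonic acid the other way: Alox5 starts leukotriene synthesis, Ltc4s makes leukotriene C4, and Alox15 makes hydroxy fatty acids and precursors of lipoxins.

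The 250 bases before the annotated starts of the cyclooxygenase genes are shown because Ptgs2 differed far more between tumors than Ptgs1 did. They are RefSeq sequence of GRCm38.p6, plus strand, from chr2:36230176-36230425 for Ptgs1 and from chr1:150099781-150100030 for Ptgs2, and capitals mark matches to 4 short motifs.
Ptgs1: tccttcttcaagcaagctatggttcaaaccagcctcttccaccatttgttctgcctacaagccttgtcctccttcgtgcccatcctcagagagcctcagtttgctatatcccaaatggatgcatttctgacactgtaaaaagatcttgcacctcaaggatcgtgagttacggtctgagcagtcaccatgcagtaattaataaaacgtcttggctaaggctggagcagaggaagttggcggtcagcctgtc
Ptgs2: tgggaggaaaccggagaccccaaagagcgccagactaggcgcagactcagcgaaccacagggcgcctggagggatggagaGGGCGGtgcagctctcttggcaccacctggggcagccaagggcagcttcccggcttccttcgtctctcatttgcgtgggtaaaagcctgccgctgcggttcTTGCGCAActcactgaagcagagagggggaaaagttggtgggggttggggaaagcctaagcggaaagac
The motifs, chosen after the sequences were seen and searched on both strands, were the C/EBP word TTGCGCAA, the GC box with the letters GGGCGG, the cAMP response element TGACGTCA, and the TATA box as it is commonly spelled, which is TATAAA. The Ptgs2 window holds TTGCGCAA starting 69 bases before the start and GGGCGG starting 170 bases before it, with no overlap between them, and the Ptgs1 window holds none of the 4. Among 32851 RefSeq promoter windows of the same length, 0.164% hold TTGCGCAA, 32.7% GGGCGG, 12.4% TATAAA and 1.55% TGACGTCA. The G and C content was 61.6% for Ptgs2 and 48.0% for Ptgs1. Of the 10 genes, 9 were matched to this set by symbol, and Alox15 was not. A match is a description of letters and shows no binding.

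The libraries held 15329810 to 16533732 counts on genes. Epithelial markers were high in every tumor, with a summed level of 12265 to 15091 CPM (counts relative to library size after TMM scaling) over 10 genes such as Epcam and Krt8. Tmem173 itself had 114, 194 and 102 CPM in the Tmem173fl/fl tumors and 145, 141 and 124 CPM in the Tmem173iΔmye tumors (replicates 1, 2 and 3, the order used throughout). These ranges overlapped, so the targeted gene does not separate the labels in whole tumor RNA. Y-linked genes had reads in 1 control (replicate 1) and in Tmem173iΔmye replicates 1 and 2, with at most 2 counts in each other tumor, so sex was not balanced between the groups. In bulk RNA, fewer cells of a type and less RNA per cell cannot be told apart. Of the 10 genes, 8 passed the filter of a mean FPKM of at least 0.5 (FPKM, counts per length and depth) and were tested among 16426 genes with edgeR's quasi-likelihood test. Ptger2 and Ltc4s did not pass it, and their values come from a fit of all 30939 genes with any count.

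Alox15 was the gene of this group with the clearest difference, about 4.78-fold higher in Tmem173iΔmye than in Tmem173fl/fl tumors, and the remaining genes differed by less than 1 on the log2 scale. The level of Alox15, on the minus strand of chromosome 11 (GRCm38, 70344152 to 70352031, 14 exons in GENCODE M21), was 35.8, 13.1 and 8.94 CPM in the Tmem173fl/fl tumors. It was 83.8, 108 and 84.7 CPM in the Tmem173iΔmye tumors. Every Tmem173iΔmye tumor was above every Tmem173fl/fl tumor, and the lowest of them was 2.34 times the highest control. Counts behind these levels were 551, 196 and 149 against 1327, 1707 and 1331. The Tmem173iΔmye tumors were also close to each other (92.0 ± 13.5 CPM, SD, n = 3), whereas the controls (19.3 ± 14.5 CPM, SD, n = 3) spread 4.01-fold from lowest to highest. On the log2 scale the fold change was 2.26 (SE 0.47, 95% interval 1.16 to 3.35). Its unadjusted p was 0.00153 from edgeR, rank 17 of the 16426 genes, but its adjusted p was 0.742 from edgeR with Benjamini-Hochberg adjustment, so it did not pass the test over all genes. With DESeq2 on the same genes it did pass, at a log2 fold change of 2.25 and an adjusted p of 6.87e-04 from DESeq2, rank 5 by p, where DESeq2 called 0.11% of genes as higher. With edgeR on all 30939 genes with any count it also passed (log2 fold change 2.27, adjusted p = 0.0437 from edgeR). The exact two-sided permutation p of log2(CPM + 1) was 0.1, the smallest that 3 tumors against 3 allow.

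**Figure D1:**
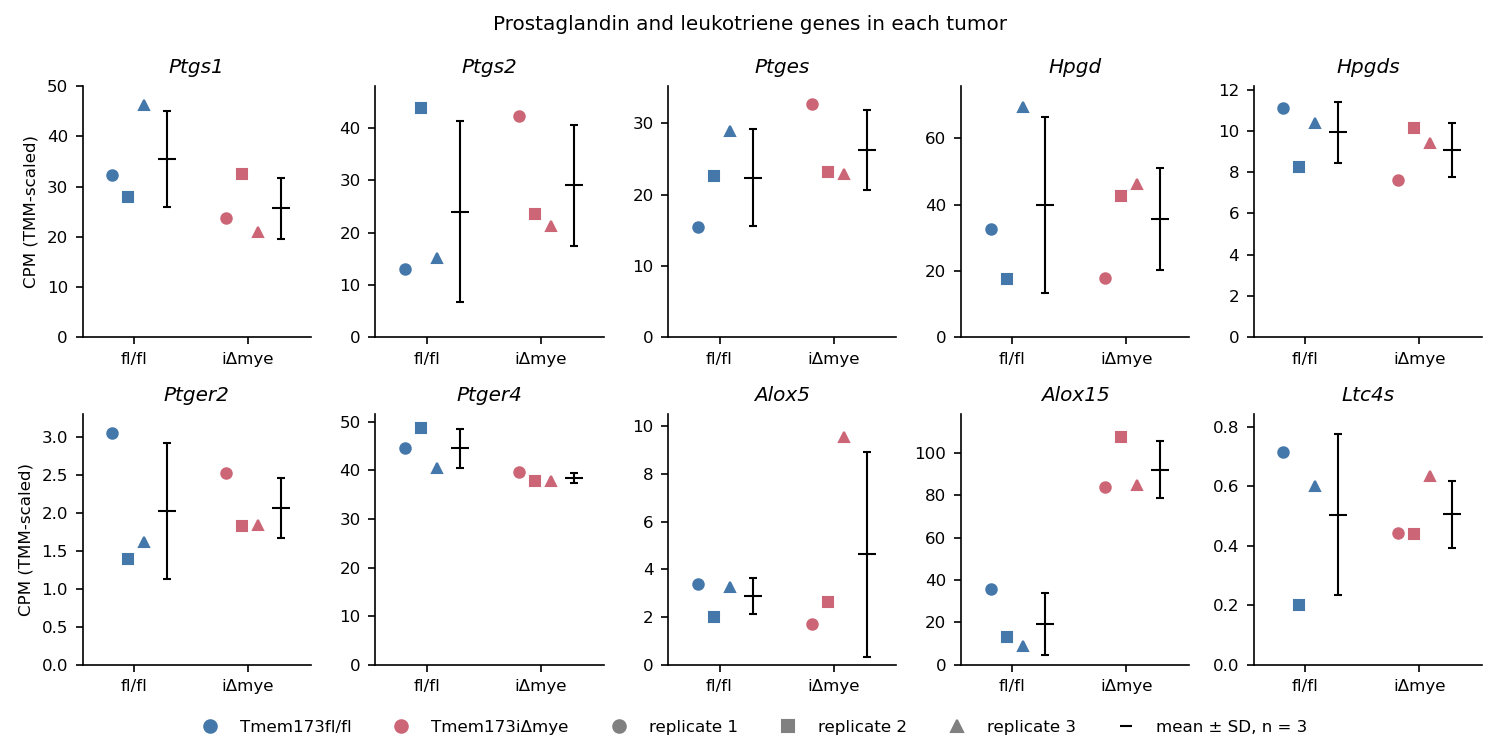
Level of each of the 10 genes in CPM scaled by TMM (vertical axis, from 0) in Tmem173fl/fl (fl/fl, blue) and Tmem173iΔmye (red) tumors, 1 point per tumor with its replicate number as the symbol and the mean ± SD (n = 3) in black. Alox15 is between 8.94 and 35.8 CPM in the controls and between 83.8 and 108 CPM in the Tmem173iΔmye tumors, while Ptger4 is slightly lower without overlap and the other genes overlap.

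Because its groups did not overlap, leaving out a tumor could not reverse the direction for Alox15. Its log2 fold change lay between 1.92 and 3.06 when each tumor was left out in turn. The highest value came without Tmem173fl/fl replicate 1, the control with the most Alox15, and there the adjusted p was 0.0756 from edgeR. For the same reason the level had to be higher both among tumors with and among tumors without Y-linked reads. Among tumors with them, it was 35.8 CPM in the control against 83.8 and 108 CPM, and among tumors without them it was 13.1 and 8.94 CPM against 84.7 CPM. Adding Y-linked reads to the model gave 2.17 on the log2 scale. No 50-base word of the Alox15 transcripts in GENCODE M21 was found in transcripts of another gene, so its reads are not shared with the other lipoxygenases at that length, and no other listed gene overlaps it.

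Alox15 is known from macrophages, eosinophils and epithelia, so the markers of these cells were read beside it. The summed level of 10 macrophage markers was 274 to 360 CPM in Tmem173fl/fl and 299 to 452 CPM in Tmem173iΔmye tumors. That of 6 eosinophil markers was 3.24 to 11.5 and 5.87 to 6.99 CPM, most of it from Il5ra (2.64 to 10.3 and 3.79 to 6.30 CPM). Of these 6, 2 passed the filter, Il5ra and Prg2, with log2 fold changes of -0.36 (SE 0.47) and 1.47 (SE 0.93). Ccr3 and Ear1 had 3 counts or fewer in every tumor. The 10 epithelial markers summed to 12265 to 13783 and 13129 to 15091 CPM. These summed levels overlapped between the groups, and the part of these cells in the Alox15 difference was not tested. Over the 6 tumors, Pearson's r of log2(CPM + 1) between Alox15 and these sums was 0.48, 0.35 and 0.68. The highest r of Alox15 with any marker sum was 0.79, for dendritic cells and for T cells. Of the 8 dendritic cell markers 3 passed the filter. Most of their sum was Itgax (12.7 to 25.3 CPM in Tmem173fl/fl and 22.0 to 27.2 CPM in Tmem173iΔmye tumors), so the sum mostly reads this gene. Of the macrophage markers 9 passed the filter and 6 of them had a log2 fold change above 0, none with an unadjusted p under 0.05 from edgeR. Of the 10 epithelial markers, which all passed it, 9 had a log2 fold change above 0. An unadjusted p under 0.05 was found for 1 of them, Vil1, which encodes a brush border protein (log2 fold change 0.35, SE 0.15, adjusted p = 0.742 from edgeR), and its groups did not overlap. The summed levels of neutrophil, dendritic cell, T cell, B cell, colonocyte, fibroblast, endothelial and smooth muscle markers overlapped between the groups as well. A log2 fold change above 0 was found for 6 of 6 T cell, 8 of 9 fibroblast, 1 of 6 smooth muscle and 0 of 5 B cell markers. It was found for 6 of 7 neutrophil, 2 of 3 dendritic cell, 4 of 6 endothelial and 4 of 8 colonocyte markers. Over all genes tested, 8111 were above 0 and 8315 below. Of the markers tested in these lists, Trac (1 of 6 T cell), Dpt (1 of 9 fibroblast) and Pecam1 (1 of 6 endothelial markers), all higher, had an unadjusted p under 0.05 from edgeR. So did Des (1 of 6 smooth muscle markers), which was lower. The neutrophil, dendritic cell, B cell and colonocyte lists had none, and the share of all genes tested was 6.14%.

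**Figure D2:**
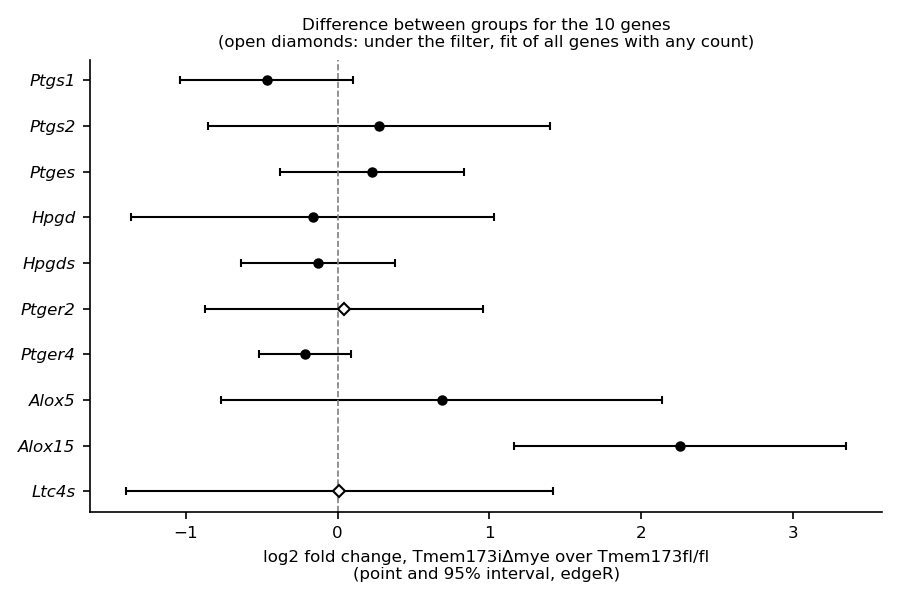
Log2 fold change for Tmem173iΔmye over Tmem173fl/fl (horizontal axis) of the 10 genes, with its 95% interval from edgeR. Filled points come from the 16426 genes tested and open diamonds, for Ptger2 and Ltc4s, from the fit of all genes with any count. The interval of Alox15, 1.16 to 3.35, is the only one of the 10 that leaves out 0.

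In number of calls the group stood close to the rest of the transcriptome. None of the 8 genes tested had an adjusted p under 0.05 in edgeR, where the share of all genes was 0.0% (1008 genes had an unadjusted p under 0.05, and DESeq2 called 28, or 0.17%). An unadjusted p under 0.05 was found for 1 of the 8, Alox15, where the share of all genes tested was 6.14% (3.23% higher and 2.9% lower in Tmem173iΔmye tumors). Alox15 was also the 1 gene of the 8 that combined this with a change of 2-fold or more, as 2.12% of all genes did (1.26% as higher). The groups did not overlap for 2 of the 8, Alox15 (higher) and Ptger4 (lower), where the share of all genes tested was 12.5% (6.03% higher and 6.47% lower). Of the 8 log2 fold changes 4 were above 0 and 4 below 0, with a median of 0.050, beside -0.0042 over all genes tested.

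The cyclooxygenases did not pass the test, and they differed in how much they varied. Ptgs1 (chromosome 2, 36230426 to 36252272, plus strand) had 32.4, 27.9 and 46.3 CPM in the Tmem173fl/fl and 23.7, 32.6 and 20.9 CPM in the Tmem173iΔmye tumors. The groups overlapped, with the highest tumor a control and the lowest a Tmem173iΔmye tumor. Its log2 fold change was -0.47 (SE 0.25, 95% interval -1.04 to 0.10, adjusted p = 0.742 from edgeR). Ptgs2 (chromosome 1, 150100031 to 150108227, plus strand) had 13.0, 43.9 and 15.2 CPM in the Tmem173fl/fl and 42.3, 23.5 and 21.3 CPM in the Tmem173iΔmye tumors. One tumor of each group, Tmem173fl/fl replicate 2 and Tmem173iΔmye replicate 1, stood above the other 4. Its log2 fold change of 0.27 (SE 0.49, 95% interval -0.86 to 1.40, adjusted p = 0.895 from edgeR) was smaller than its error. It was -0.10 without Tmem173iΔmye replicate 1 and 1.04 without Tmem173fl/fl replicate 2. The coefficient of variation in the control group was 71.7% for Ptgs2 and 27.0% for Ptgs1, and in the Tmem173iΔmye group 39.8% and 23.8%.

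Per length, the inducible form did not dominate in most tumors. The log2 ratio of the FPKM of Ptgs2 to that of Ptgs1 was -1.55, 0.41 and -1.85 in the Tmem173fl/fl and 0.60, -0.71 and -0.21 in the Tmem173iΔmye tumors. Ptgs2 was thus above Ptgs1 in 2 of 6 tumors, those with the highest Ptgs2. The mean ratio was -0.996 ± 1.23 (SD, n = 3) in controls and -0.11 ± 0.66 (SD, n = 3) in Tmem173iΔmye tumors, and the groups overlapped.

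The genes of prostaglandin E2 synthesis and breakdown overlapped between the groups as well. Ptges (chromosome 2, 30889471 to 30929863, minus strand) had 15.4, 22.7 and 29.0 CPM in the Tmem173fl/fl and 32.7, 23.1 and 22.9 CPM in the Tmem173iΔmye tumors (log2 fold change 0.23, SE 0.26, adjusted p = 0.832 from edgeR). Hpgd, on the plus strand of chromosome 8 from 56294585 to 56321043, had 32.8, 17.5 and 69.4 CPM in the controls. It had 18.0, 42.7 and 46.2 CPM in the Tmem173iΔmye tumors. Hpgd thus varied 3.96-fold over the 6 tumors with both groups spread over the same range. Its log2 fold change was -0.16 (SE 0.52, 95% interval -1.36 to 1.03, adjusted p = 0.945 from edgeR), and it was 0.51 without Tmem173fl/fl replicate 3. By FPKM, Hpgd was above Ptges in all 6 tumors, with a log2 ratio of Ptges to Hpgd between -2.48 and -0.36.

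The largest differences in Ptgs2 and Hpgd lay between tumors of the same group. The tumors with the most Ptgs2, Tmem173fl/fl replicate 2 and Tmem173iΔmye replicate 1, had the least Hpgd (17.5 and 18.0 CPM against 32.8 to 69.4 CPM in the other 4). They also had the least Hpgds, the prostaglandin D2 synthase of mast cells and tuft cells, at 8.27 and 7.64 CPM against 9.42 to 11.1 CPM. Over the 6 tumors, Pearson's r of log2(CPM + 1) was -0.80 between Ptgs2 and Hpgd (Spearman's rho -0.66) and -0.95 between Ptgs2 and Hpgds (rho -0.89). Between Ptgs2 and Ptges it was 0.50 (rho 0.26). The values for Ptgs2 with Hpgds and with Hpgd were the most negative r among all pairs of the 8 genes tested, so they are extremes. All these values describe 6 libraries and share their scaling, and the same 2 tumors set most of the range. The log2 ratio of Ptgs2 to Hpgd by FPKM was -0.12 and -0.21 in these tumors and between -3.64 and -2.30 in the other 4.

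**Figure D3:**
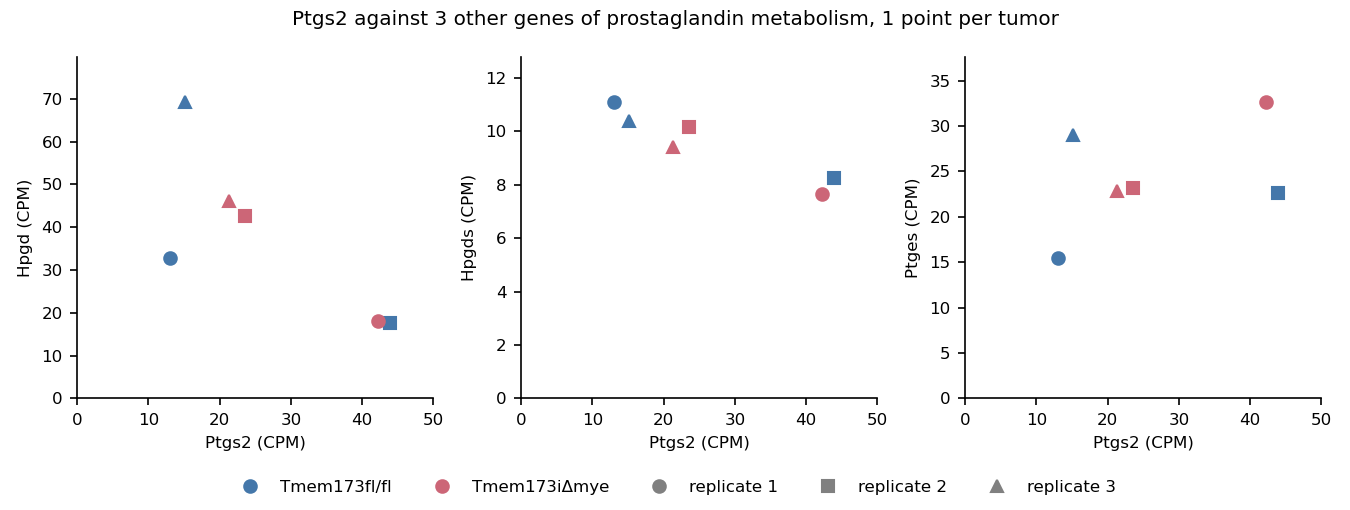
Level of Ptgs2 (horizontal axis, CPM) against Hpgd, Hpgds and Ptges (vertical axes, CPM from 0) with 1 point per tumor, coloured by group and with the replicate number as the symbol. The points at 43.9 CPM (Tmem173fl/fl replicate 2) and 42.3 CPM (Tmem173iΔmye replicate 1) of Ptgs2 are the lowest for Hpgd and Hpgds and not for Ptges.

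Hpgds (chromosome 6, 65117293 to 65144908, minus strand) was among the steadiest of the 10 genes. It had 11.1, 8.27 and 10.4 CPM in the Tmem173fl/fl and 7.64, 10.1 and 9.42 CPM in the Tmem173iΔmye tumors. The groups overlapped, with a log2 fold change of -0.13 (SE 0.22, 95% interval -0.64 to 0.38, adjusted p = 0.889 from edgeR).

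Of the prostaglandin E2 receptors, Ptger4 had by far the higher level. Ptger4 (chromosome 15, 5206661 to 5244187, minus strand) had 44.5, 48.6 and 40.6 CPM in the Tmem173fl/fl and 39.6, 37.9 and 37.8 CPM in the Tmem173iΔmye tumors. Every Tmem173iΔmye tumor was below every control, by a small margin. Its log2 fold change was -0.21 (SE 0.13, 95% interval -0.52 to 0.09, adjusted p = 0.750 from edgeR) and the exact two-sided permutation p was 0.1, the smallest possible here. Ptger4 overlaps Ttc33 on the other strand and shares 14.4% of its 50-base transcript words with other genes. The kit named in the labels is not described there as strand-specific and the strand setting of the counting is not given in the sources used here, so reads in that stretch cannot be assigned with certainty. Ptger2 (chromosome 14, 44988195 to 45003820, plus strand) was counted only 47, 21 and 27 times in controls against 40, 29 and 29 times with the deletion. By FPKM its mean was 0.39 against 6.20 for Ptger4. For Ptger2 the log2 fold change was 0.043 (SE 0.43, 95% interval -0.88 to 0.96, adjusted p = 0.999 from edgeR), an interval that leaves room for nearly 2-fold either way.

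The leukotriene genes were low, and 1 tumor set the value of Alox5. Alox5 (chromosome 6, 116410077 to 116461178, minus strand) had 3.38, 2.0 and 3.24 CPM in the Tmem173fl/fl tumors. It had 1.70, 2.65 and 9.55 CPM in the Tmem173iΔmye tumors. Only Tmem173iΔmye replicate 3 was above the control range, while replicate 2 lay within it and replicate 1 below it. This gave a log2 fold change of 0.69 (SE 0.63, 95% interval -0.77 to 2.14, adjusted p = 0.795 from edgeR), and without that tumor it was -0.40. Ltc4s (chromosome 11, 50236461 to 50238616, minus strand) was counted 11, 3 and 10 times in controls against 7, 7 and 10 times with the deletion. At this depth a difference in Ltc4s was not detectable, with a log2 fold change of 0.012 (SE 0.66, 95% interval -1.39 to 1.42, adjusted p = 1.0 from edgeR). Ltc4s overlaps the antisense gene Gm26542, with which its reads may be mixed.

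The tumor with the most Alox5 was also the one with the most mast cell RNA. The summed level of 11 mast cell markers, among them Cpa3 and the mast cell proteases Mcpt1 and Mcpt2, was 289, 112 and 67.8 CPM in the Tmem173fl/fl tumors. It was 171, 82.2 and 1028 CPM in the Tmem173iΔmye tumors. Mcpt1 and Mcpt2 made up most of the 1028 CPM, at 479 and 310 CPM. Every marker but Hdc was highest in Tmem173iΔmye replicate 3, where Hdc had 6.43 CPM against 16.7 CPM in Tmem173iΔmye replicate 1. All 11 markers passed the filter, all 11 had a log2 fold change above 0, and none had an unadjusted p under 0.05 from edgeR. In the other 5 tumors the levels had no common order, with 1.70 CPM of Alox5 at 171 CPM of markers and 3.24 CPM at 67.8 CPM. Mast cells also express Hpgds and Ltc4s. In Tmem173iΔmye replicate 3 Hpgds had 9.42 CPM, within the 7.64 to 11.1 CPM of all 6 tumors. Ltc4s had 10 counts there, within 3 to 11, which is too few to compare tumors. The part of mast cells in the Alox5 value was not tested. Of 10 tuft cell markers, tuft cells being the epithelial cells that express Ptgs1, Hpgds, Alox5 and Ltc4s, 4 passed the filter. The summed level of all 10 overlapped between the groups (127 to 181 and 110 to 178 CPM). Most of this sum was Avil, at 92.8, 154 and 112 CPM in the Tmem173fl/fl and 78.8, 150 and 103 CPM in the Tmem173iΔmye tumors. Pou2f3 had 3 to 5 counts per tumor and Il25 had 3 or fewer, so the sum mostly reads Avil.

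**Figure D4:**
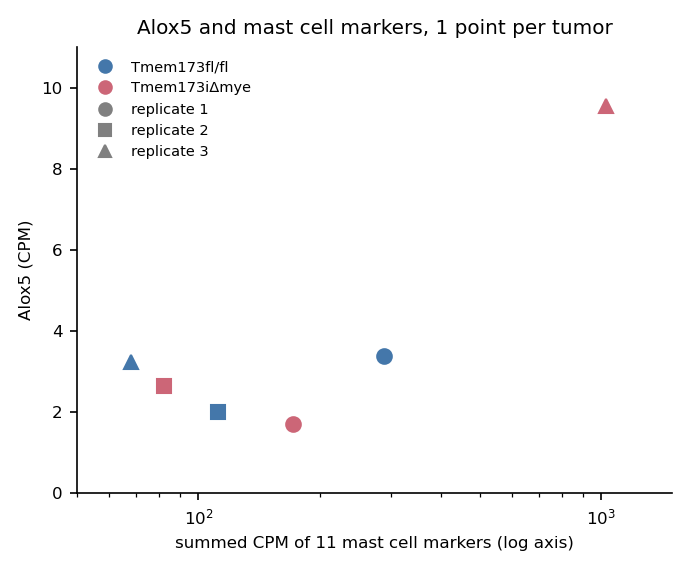
Level of Alox5 (vertical axis, CPM from 0) against the summed level of 11 mast cell markers (horizontal axis, CPM, log scale) with 1 point per tumor. Tmem173iΔmye replicate 3 lies apart at 9.55 CPM of Alox5 and 1028 CPM of markers, and the other 5 tumors lie between 1.70 and 3.38 CPM of Alox5 with no common direction.

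Ordered by level per length, the 10 genes stood in a different order in each group, and Alox15 moved furthest in level. In the Tmem173fl/fl tumors Hpgd was highest (23.5 ± 15.7 FPKM, SD, n = 3), followed by Ptgs1 (9.09 ± 2.44 FPKM, SD, n = 3) and Alox15 (7.78 ± 5.78 FPKM, SD, n = 3). Their ranges overlapped from each gene to the next down to Ptgs2. In the Tmem173iΔmye tumors Alox15 was highest at 37.3 ± 5.36 FPKM (SD, n = 3), and its lowest tumor, at 34 FPKM, was above the highest value of Hpgd, 27.3 FPKM. Below Hpgd, 4 genes (Ptges, Ptgs1, Ptgs2 and Ptger4) followed between 5.75 and 6.64 FPKM on average, with overlapping ranges from each to the next. In both groups Hpgds, Alox5, Ltc4s and Ptger2 closed the order at means of 1.53 FPKM or less.

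For each of the 8 genes tested, the genes with the most similar pattern were sought by Pearson's r of log2(CPM + 1) over the 6 tumors, among genes that reached 1 FPKM on average. For Alox15 these were Tsnax and Plppr2 (r = 0.996 for both), and 166 of 14231 genes had an r over 0.9. Tsnax had 91.0, 79.7 and 77.0 CPM in the Tmem173fl/fl and 102, 103 and 98.9 CPM in the Tmem173iΔmye tumors, so its difference between the groups was far smaller than that of Alox15, and its order of the tumors was close to that of Alox15 but not identical (Spearman's rho 0.94). For Ptgs2 they were Apobec2 and Erp44, for Hpgd Hps3 and Gm53, for Hpgds Fcamr and H3f3a-ps1, and for Ptges Cfb and Shq1. For Ptgs1 they were Accs and Gm47385, for Ptger4 Fmnl3 and Plekhm2, and for Alox5 Harbi1 and Svopl. The r of these genes lay between 0.974 and 0.996. With 6 tumors and 14231 genes such values are common (38 to 229 genes per member had an r over 0.9), so they name similar patterns and nothing more.

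The other genes of the pathway, a list of 49, gave no call over all genes and a number of unadjusted calls near the background. Of the 49, 36 passed the filter, and 0 had an adjusted p under 0.05 in edgeR. Unadjusted p-values under 0.05 were found for 2 of the 36, Alox12e and Pla2g4c, both higher in Tmem173iΔmye tumors. Over all genes tested the share was 6.14% in both directions together and 3.23% as higher, so the count is no result about the list. The groups did not overlap for 6 of the 36 (Pla2g4c, Pla2g6, Akr1b3, Lta4h, Ggt5 and Alox12e), again all higher, where the share of all genes tested was 12.5% in both directions together and 6.03% as higher. Of these 6, Pla2g6, Akr1b3 and Ggt5 had log2 fold changes of 0.18 (SE 0.14), 0.24 (SE 0.12) and 0.40 (SE 0.21). Log2 fold changes were above 0 for 29 and below 0 for 7, with a median of 0.19. Over all genes tested, 8111 were above 0 and 8315 below, with a median of -0.0042. Pla2g4c (0.46 FPKM in Tmem173fl/fl and 1.01 in Tmem173iΔmye on average), Tbxas1, Tbxa2r and Cysltr1 had a control mean under 0.5 FPKM. They passed the filter only through the Tmem173iΔmye tumors, and Ltb4r2 passed it only through the controls. The place of these genes in the counts above thus depends on the group difference itself. No test was run over the list or its roles.

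Among the other lipoxygenases, Alox12e, an epidermal-type lipoxygenase gene that neighbours Alox15 on chromosome 11 (70315610 to 70322628), was low and higher in Tmem173iΔmye tumors. It had 2.15, 1.53 and 2.82 CPM in the Tmem173fl/fl and 6.57, 4.79 and 4.52 CPM in the Tmem173iΔmye tumors, without overlap. Its log2 fold change was 1.28 (SE 0.33, adjusted p = 0.742 from edgeR, unadjusted p = 0.00528). Alox12, the platelet-type lipoxygenase and the highest of this role at 22.4 FPKM on average, had 86.3, 132 and 102 CPM in the Tmem173fl/fl and 99.2, 63.9 and 70.0 CPM in the Tmem173iΔmye tumors. The groups overlapped (log2 fold change -0.46, SE 0.22, adjusted p = 0.742 from edgeR). Of the summed FPKM of 7 lipoxygenase genes, Alox15 took 39.0, 13.7 and 12.0% in the Tmem173fl/fl and 55.7, 70.8 and 62.0% in the Tmem173iΔmye tumors, and Alox12 took 56.5, 83.2 and 81.6% and 39.6, 25.3 and 30.7%. Alox12 was thus the leading lipoxygenase transcript in every control and Alox15 in every Tmem173iΔmye tumor, a comparison chosen after the values were seen.

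**Figure D5:**
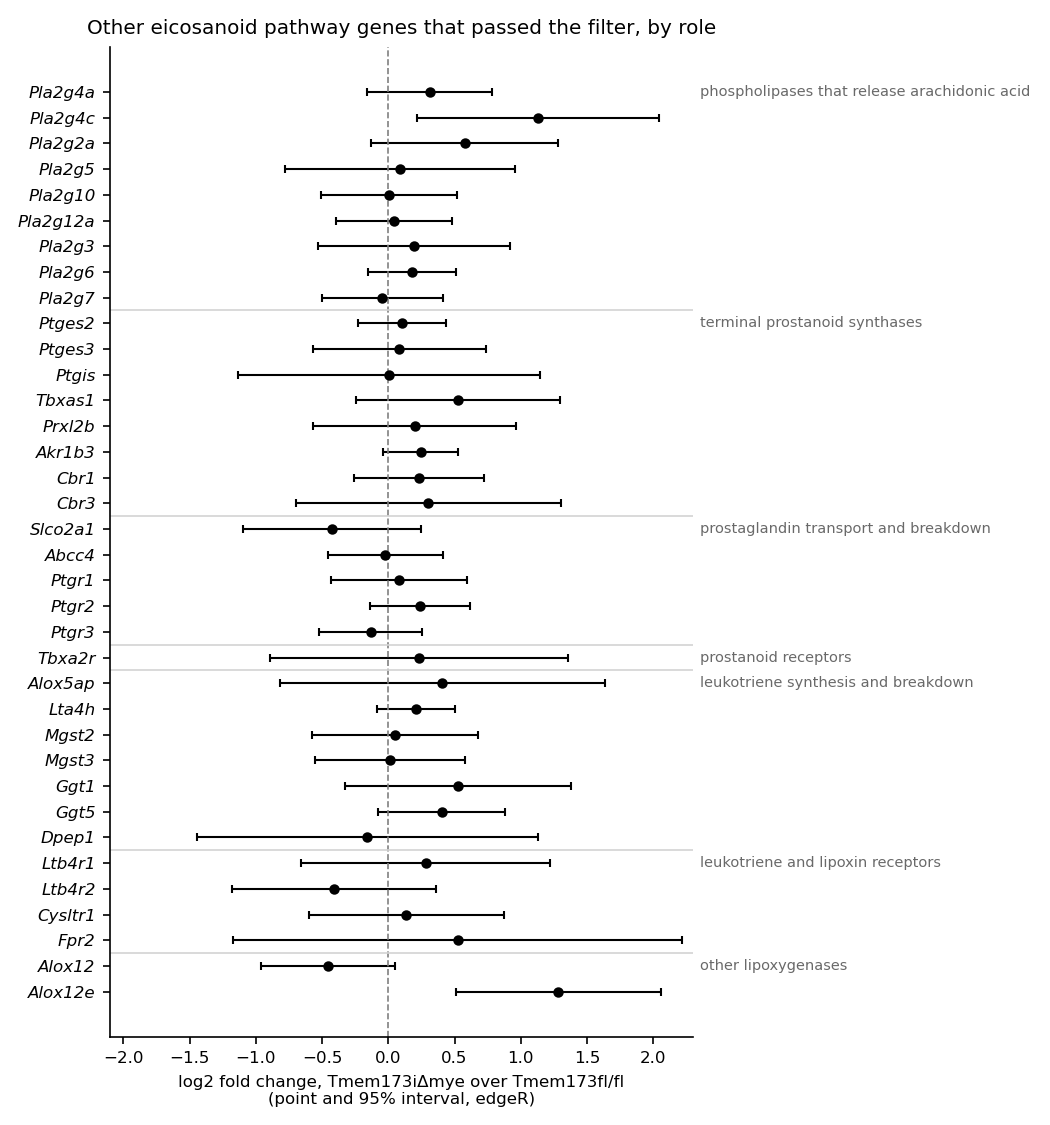
Log2 fold change for Tmem173iΔmye over Tmem173fl/fl (horizontal axis) with its 95% interval from edgeR for the 36 other pathway genes that passed the filter, grouped by role from phospholipases to lipoxygenases. The intervals of Pla2g4c and Alox12e lie above 0, at log2 fold changes of 1.13 and 1.28, and those of the other 34 include 0.

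Of 9 phospholipases, which release arachidonic acid or related lipids from membranes, 8 had a log2 fold change above 0. The other gene with an unadjusted p under 0.05, Pla2g4c, a cytosolic phospholipase, had 2.34, 1.67 and 1.20 CPM in the Tmem173fl/fl and 2.59, 4.98 and 3.82 CPM in the Tmem173iΔmye tumors, without overlap (log2 fold change 1.13, SE 0.39, adjusted p = 0.742 from edgeR). Pla2g2a and Pla2g10 had the highest levels of this role, at 312 and 32.0 FPKM on average. Pla2g2a, a secreted phospholipase of the gut epithelium that carries an inactivating mutation in C57BL/6 and some other inbred strains, had 311, 149 and 241 CPM in the Tmem173fl/fl and 474, 280 and 292 CPM in the Tmem173iΔmye tumors, with overlapping groups (log2 fold change 0.58, SE 0.31, adjusted p = 0.742 from edgeR). This high RNA level stands beside a stated C57BL/6N background, and which allele these mice carry, and so whether the RNA encodes an active enzyme, was not tested. Pla2g10 had a log2 fold change of 0.0059 (SE 0.22).

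The terminal synthases and the transport and breakdown genes did not pass the test either. Of 9 synthases 8 passed the filter, all with log2 fold changes above 0 and none over 0.52. Ptges3, a co-chaperone with prostaglandin E synthase activity, and Cbr1, a carbonyl reductase, had the highest levels, with log2 fold changes of 0.083 (SE 0.28) and 0.23 (SE 0.21). Of 5 transport and breakdown genes, 3 had a log2 fold change below 0. The highest in level were Ptgr1, a prostaglandin reductase (log2 fold change 0.081, SE 0.22), and Abcc4, which exports prostaglandin E2 (log2 fold change -0.022, SE 0.19).

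Of 8 other genes of leukotriene synthesis and breakdown, 7 passed the filter. Dpep2, which acts on leukotriene D4, did not, with 1 to 6 counts. Alox5ap, which presents arachidonic acid to Alox5, had 31 to 117 counts and overlapping groups (log2 fold change 0.41, SE 0.53, adjusted p = 0.856 from edgeR). The highest in level, Mgst3, a microsomal glutathione transferase, and Lta4h, which makes leukotriene B4, had 145 and 29.6 FPKM on average. The log2 fold change was 0.012 (SE 0.24) for Mgst3 and 0.21 (SE 0.13, adjusted p = 0.751 from edgeR) for Lta4h, whose levels did not overlap between the groups (157 to 185 and 186 to 212 CPM). Receptors were mostly under the filter. Only Tbxa2r of 7 prostanoid receptors passed it, at 0.50 FPKM, while Ptger1 had 0.38 FPKM, and of 6 leukotriene and lipoxin receptors 4 passed, led by Ltb4r1 and Fpr2 at 1.61 and 1.53 FPKM. The log2 fold changes of these 4 ranged from -0.41 to 0.52, none with an unadjusted p under 0.05 from edgeR.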

How the data were processed

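Polyadenylated RNA of 6 tumors was sequenced. The authors deposited 1 table with unnormalized gene counts and FPKM (per the labels, fastp, HISAT2 2.0.5, featureCounts 1.5.0-p3 and GRCm38). The deposited FPKM equal the counts divided by gene length, median-of-ratios size factors and the geometric mean of the library totals, within a relative difference of 5e-07. The table also holds the authors' own comparison from DESeq2 1.20.0, which was not used. In it, 27 gene names had turned into dates, and none of them is named here.

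The quasi-likelihood test of edgeR 4.0.16 in R 4.3.3 was run on the counts with TMM, the group as the only term, a mean FPKM of at least 0.5 and Benjamini-Hochberg adjustment over that whole table. The SE equals the absolute log2 fold change over the square root of F. Fold changes are Tmem173iΔmye over Tmem173fl/fl. DESeq2 1.42.0 and limma 3.58.1 on log2(FPKM + 1) or log2(FPKM + 0.1) were alternatives, with other filters and scalings, the replicate number as a block, Y-linked reads as a covariate, and each tumor left out. On simulated counts with 200 of 16426 genes changed, edgeR called 144 genes, of which 6 were not changed, and DESeq2 called 178, of which 29 were not. The simulation gave genes of equal level the same spread and changed only genes above a count floor. These figures are therefore not error rates for the tumors, where spread differs from gene to gene. Named are the 10 genes, from each role of the pathway list the 2 highest in level and those with an unadjusted p under 0.05, and for each gene tested the 2 most similar in pattern. The pathway genes Pla2g6, Akr1b3, Ggt5, Alox5ap, Dpep2, Tbxas1, Cysltr1 and Ltb4r2 fall outside this rule and were named after their values were seen. So were the markers Vil1, Avil, Pou2f3, Il5ra, Prg2, Itgax, Trac, Dpt, Pecam1, Des and Hdc. Members and lists were chosen with earlier results of these data known. Prxl2b and Ptgr3 are listed under older symbols. Intervals cover the spread between 3 tumors per group.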

Additional observations from a re-analysis of the deposited data

How the results depend on the processing

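The count of genes with an adjusted p under 0.05 was 0 in edgeR, 28 with DESeq2, 6 with all genes with any count and between 0 and 1 with a tumor left out. That of genes past an absolute log2 fold change of 1 and an unadjusted p of 0.05 was 349, and it was 872 with all genes with any count, 136 with limma on log2(FPKM + 1), 211 with Y-linked reads as a covariate, and 218 to 636 with a tumor left out (636 without Tmem173fl/fl replicate 1, 218 without Tmem173fl/fl replicate 3). The 2 pathway genes with an unadjusted p under 0.05 became 4 with all genes with any count, 1 with a mean FPKM of at least 1 (which leaves out Pla2g4c), and 1 to 5 with a tumor left out (5 without Tmem173fl/fl replicate 1, 4 without Tmem173fl/fl replicate 2, 1 without Tmem173iΔmye replicate 2). Alox15 kept its direction in all 14 alternatives, with log2 fold changes of 1.92 to 3.06 and adjusted p from 6.87e-04 to 1.0, and passed in 2 of them. The cause of these changes was not tested. With a tumor left out, the direction of Alox15 was fixed by the lack of overlap between its groups.

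With a tumor left out, the log2 fold change of Ptgs2 ranged from -0.10 to 1.04, that of Hpgd from -0.52 to 0.51, of Alox5 from -0.40 to 1.08, of Ptger2 from -0.17 to 0.46 and of Ltc4s from -0.36 to 0.34. With Y-linked reads as a covariate it was -0.10 for Ptger2 and -0.017 for Ltc4s. Ptgs1, Ptges, Hpgds and Ptger4 kept their direction in all 14. Alox5 has no value with a mean FPKM of at least 1.

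Same-numbered tumors deviated from their group means with correlations across genes of 0.31, 0.0085 and 0.15, and Tmem173fl/fl replicate 2 was most like Tmem173iΔmye replicate 3, so the numbers are not taken to pair the tumors. With a replicate block in the model, Alox15 had a log2 fold change of 2.50 (adjusted p = 0.240 from edgeR), no count of calls moved by over 1.5 times (377 genes past both limits, 3 pathway genes, 0 genes over all by adjusted p).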

Other observations

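The genes within 100 kb of Alox15 were read after its values were seen. Of the 5 that passed the filter, Alox12e and Med11, a subunit of the Mediator complex, were higher in Tmem173iΔmye than in Tmem173fl/fl tumors without overlap and had an unadjusted p under 0.05 from edgeR. Over all genes tested, 6.03% were higher without overlap and 3.23% were higher at an unadjusted p under 0.05 from edgeR. Med11 had 15.5, 11.9 and 13.3 CPM in the Tmem173fl/fl and 23.7, 18.0 and 18.1 CPM in the Tmem173iΔmye tumors (log2 fold change 0.56, SE 0.19, adjusted p = 0.742 from edgeR). Pelp1, the nearest tested gene on the other side of Alox15, and Arrb2 overlapped between the groups, with log2 fold changes of 0.18 (SE 0.18) and 0.34 (SE 0.21). The difference at Alox15 was therefore larger than that of each of these neighbours, and none of them passed the test over all genes.

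Of 5690 genes that reached 10 FPKM on average, Alox15 had the 10th highest log2 fold change for Tmem173iΔmye over Tmem173fl/fl. Its control mean of 7.78 FPKM was under this cut, so it was included only through the Tmem173iΔmye tumors (37.3 FPKM). Among all 16426 genes tested its rank by log2 fold change was 73.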
